A study of Mus musculus with 6 samples.

Results

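Intraflagellar transport (IFT) genes and the genes of the BBSome were followed in samples of the retinal pigment epithelium (RPE), the cell layer behind the photoreceptors, after damaging light. They were taken by name: every measured gene called Ift or Bbs with a number, together with Ttc8, Arl6, Kif3a, Kif17 and Dync2h1, which gives 27 genes, of which 26 were measured among 18193 genes in all. Arl6 had no probe set used here. The mice were of the albino BALB/c strain and all of them were kept in the dark for 1 week. The dark-adapted group had no light exposure (3 arrays), and the light-damaged group received 6000 lux of white fluorescent light for 1.5 h, with RPE taken 24 h afterwards (3 arrays). Age and sex are not used here, no allele or transgene is named for either group, and the labels do not say whether a sample is 1 animal or a pool, so p-values measure the spread between these samples only, which may be technical.

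A primary cilium is built and kept by trains of IFT particles that carry tubulin and membrane proteins along the axoneme. The IFT-B complex is needed for outward transport by kinesin motors and the IFT-A complex for return transport by a cytoplasmic dynein. The BBSome, a coat of several proteins named after Bardet-Biedl syndrome, rides on the trains and moves membrane proteins through and out of the cilium. The photoreceptor outer segment is a modified cilium whose proteins pass through the connecting cilium by this route, and loss of BBSome or IFT genes leads to retinal degeneration. RPE cells also carry a primary cilium.

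Values are log2 expression values, differences are light-damaged minus dark-adapted on that scale ± standard error from limma with the replicate number as a pair, and a gene was called when its p-value, adjusted over all 18193 genes, was under 0.05. Over all genes 4.99% were called, 3.07% higher and 1.92% lower. Among the 26 members 3 were called (11.5%): Ift57 rose, and the BBSome subunits Bbs9 and Ttc8 fell. The median difference of the members was -0.14, against -9.4e-05 over all genes. Leaving out 1 array at a time, unpaired, gave members' medians from -0.34 without dark-adapted replicate 1 to 1.39e-05 without light-damaged replicate 1. Such a comparison keeps the other array of the same number, so a shift of that replicate is not balanced between the groups. Leaving out both arrays of replicate 1, 2 or 3, with the pairing kept, gave medians of -0.10, -0.10 and -0.19. A difference below 0 was found for 20 of the 26 members (76.9%) and for 50.1% of all genes, and 14 members (53.8%) were lower in all 3 pairs, against 20.7% of all genes. At an unadjusted p under 0.05 there were 7 members, 6 lower and 1 higher, against 19.0% of all genes. None of the members was called without the pairing, where 9 of all genes were called and 1 member, Ift57, had an unadjusted p under 0.05.

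**Figure D1:**
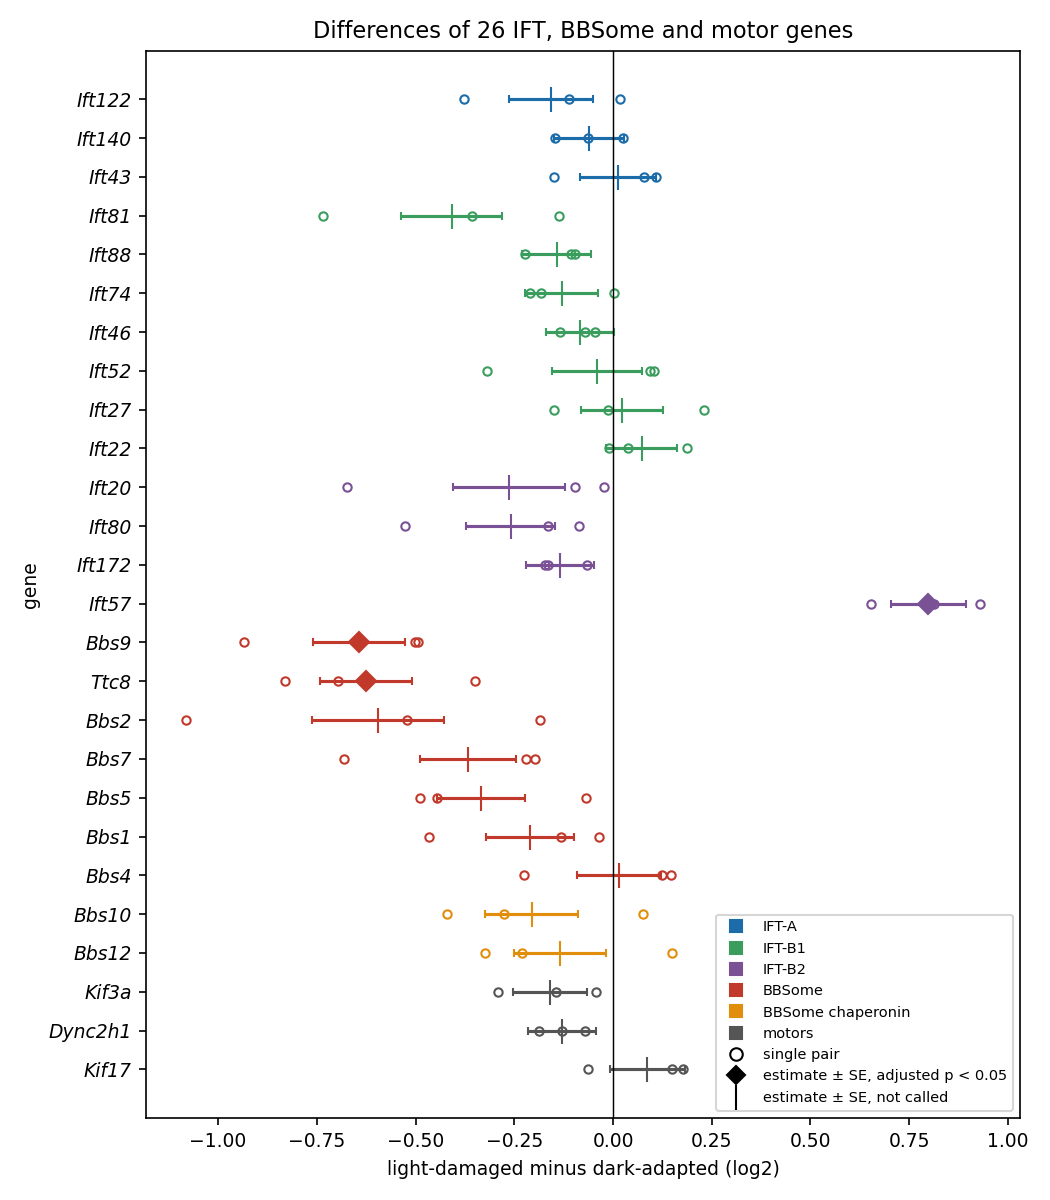
Light-damaged minus dark-adapted differences (log2, horizontal axis) of the 26 measured genes, grouped and coloured by complex. Open circles are the 3 pairs, and the bars give the limma estimate ± SE, with a diamond where the adjusted p was under 0.05. Ift57 at 0.80 lies alone on the right, and Bbs9 at -0.64, Ttc8 at -0.63 and Bbs2 at -0.60 lie farthest to the left.

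In each group, replicate 1 differed from replicates 2 and 3, with the 18S rRNA control at 11.38 and 10.72 against 12.98 to 13.30 in the other 4 arrays, and with a Gapdh 3′ minus 5′ control difference, a measure of RNA integrity and labelling, of 2.45 and 2.48 against 1.54 to 1.80. The part of these control differences in the members' values was not tested. Both replicate 1 arrays were the lowest of the 6 for 15 of the 26 members (57.7%) and for 26.7% of all genes, and the highest for 4 members and 33.3% of all genes. Without these 2 arrays the same 3 members were called, Ift57 at 0.87, Bbs9 at -0.71 and Ttc8 at -0.52.

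Ift57, a subunit of the peripheral IFT-B2 part of the complex that binds Ift20 and is also known as Hippi, a partner of the huntingtin-interacting protein HIP1, was the 1 member that rose. Its log2 values were 9.96, 9.79 and 10.00 in dark-adapted replicates 1, 2 and 3, and 10.61, 10.60 and 10.93 in light-damaged replicates 1, 2 and 3. All light-damaged arrays lay above all dark-adapted ones, which over all genes was so for 10.3% in either direction, and the replicate 1 arrays did not stand apart for this gene. The means were 9.91 ± 0.11 (SD, n = 3) and 10.71 ± 0.19, and the difference was 0.80 ± 0.10, or 1.74-fold (limma adjusted p = 0.0089). The rise was 0.65, 0.81 and 0.93 in pairs 1, 2 and 3. The call was lost without the pairing (adjusted p = 0.18) and without the replicate 3 arrays (0.73, adjusted p = 0.071). A second probe set, which was 4.68 log2 units dimmer on average, gave 0.18 ± 0.10, and the mean of both gave 0.49 with an adjusted p of 0.019.

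Bbs9, which with Bbs2 and Bbs7 forms the core from which the BBSome is assembled, fell 1.56-fold. It was at 8.61, 9.47 and 9.38 in dark-adapted replicates 1 to 3 and at 8.11, 8.53 and 8.89 in light-damaged replicates 1 to 3. The groups overlapped because dark-adapted replicate 1 was low, while each light-damaged array was below the dark-adapted array of the same number. The difference was -0.64 ± 0.12 (limma adjusted p = 0.033), with -0.50, -0.93 and -0.49 in the pairs. Ttc8, the BBSome subunit also called Bbs8, which is built of tetratricopeptide repeats, fell 1.54-fold. It was at 9.91, 10.96 and 11.00 in the dark-adapted arrays and at 9.08, 10.27 and 10.65 in the light-damaged ones, again with overlap of the groups through replicate 1. The difference was -0.63 ± 0.12 (limma adjusted p = 0.035), with -0.83, -0.70 and -0.35 in the pairs. Both calls were lost without the replicate 2 arrays (adjusted p of 0.082 for Bbs9 and 0.080 for Ttc8), without the replicate 3 arrays (0.0998 and 0.063) and without the pairing (0.96 and 1.00). In the unpaired comparison without light-damaged replicate 1, Ttc8 differed by -0.17 and Bbs9 by -0.44. Dark-adapted replicate 1, low for both genes, stays in that comparison without its partner.

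**Figure D2:**
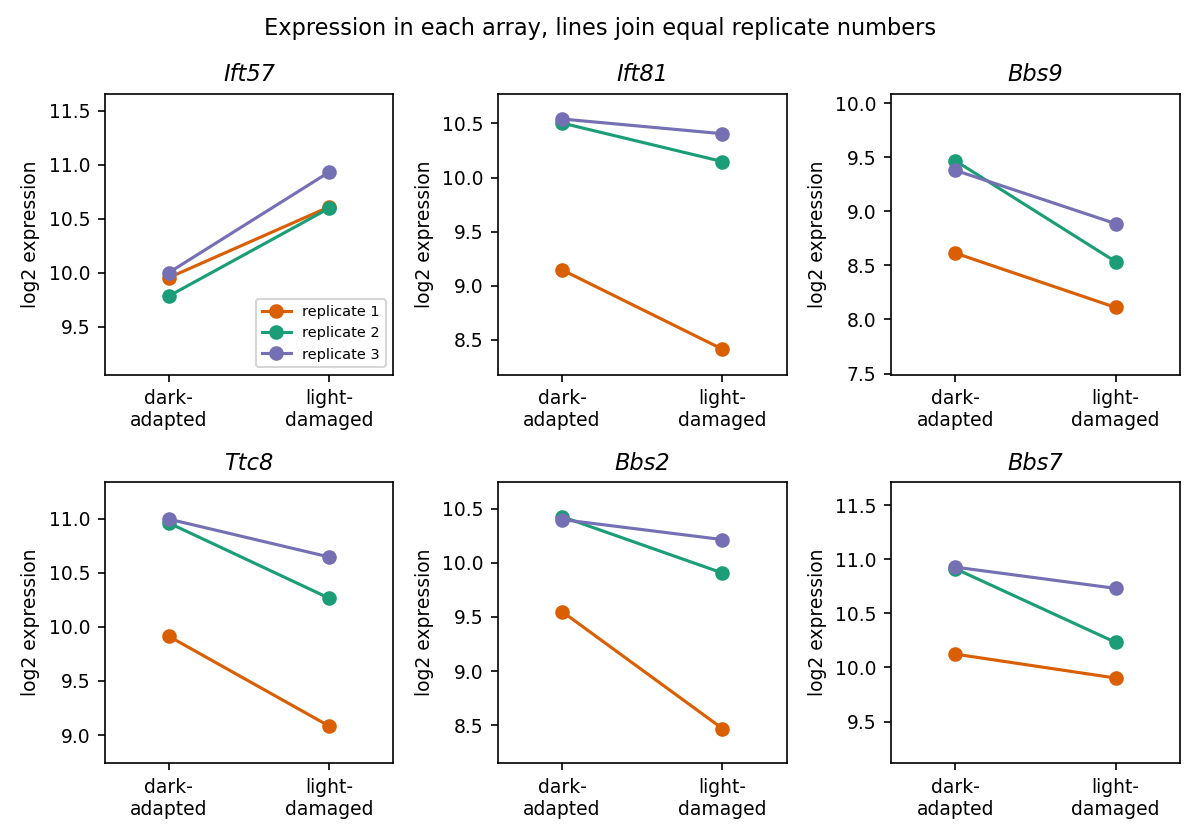
Log2 expression of 6 members in each array, dark-adapted on the left and light-damaged on the right of each panel, with lines joining equal replicate numbers. Every panel spans the same range of log2 units. Ift57 rises in each pair with all 3 lines close together, and Ift81, Bbs9, Ttc8, Bbs2 and Bbs7 are lower in the light-damaged array of each pair, with replicate 1 below the others of its group.

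The promoters of the called genes are shown because RFX transcription factors, which switch on many ciliary genes, bind a palindromic element called the X-box. A single arm of it, GTTGCC on either strand, and a form with both arms, GTTNCC followed after 1 to 3 bases by GGNAAC, were searched on both strands in the RefSeq windows (GRCm38.p6) from 250 bases before to 50 after each annotated start. A match with both arms can contain a match of the single arm. Of the 26 measured members 23 had a window. The windows of Ift57, Bbs9 and Ttc8 follow whole, and that of Bbs7, the other member with both arms, is cut to the stretch around the match and was chosen after its match was seen. Capitals mark the matches.
Ift57, chr16:49699044-49699343, plus strand: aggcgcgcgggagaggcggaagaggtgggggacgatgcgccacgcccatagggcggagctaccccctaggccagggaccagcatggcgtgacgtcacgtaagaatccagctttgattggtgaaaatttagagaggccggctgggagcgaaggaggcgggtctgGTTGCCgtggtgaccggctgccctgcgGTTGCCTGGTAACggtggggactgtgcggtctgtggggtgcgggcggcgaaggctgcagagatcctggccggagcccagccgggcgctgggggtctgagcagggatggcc
Bbs7, chr3:36613445-36613564, minus strand: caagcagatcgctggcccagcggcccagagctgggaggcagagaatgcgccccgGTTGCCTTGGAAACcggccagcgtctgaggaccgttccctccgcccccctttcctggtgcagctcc
Bbs9, chr9:22475465-22475764, plus strand: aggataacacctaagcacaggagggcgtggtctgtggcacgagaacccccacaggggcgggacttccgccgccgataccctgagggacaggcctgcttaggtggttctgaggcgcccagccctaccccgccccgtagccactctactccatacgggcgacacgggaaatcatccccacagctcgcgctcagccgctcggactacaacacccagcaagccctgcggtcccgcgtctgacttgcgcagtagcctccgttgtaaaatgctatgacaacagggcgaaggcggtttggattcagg
Ttc8, chr12:98920324-98920623, plus strand: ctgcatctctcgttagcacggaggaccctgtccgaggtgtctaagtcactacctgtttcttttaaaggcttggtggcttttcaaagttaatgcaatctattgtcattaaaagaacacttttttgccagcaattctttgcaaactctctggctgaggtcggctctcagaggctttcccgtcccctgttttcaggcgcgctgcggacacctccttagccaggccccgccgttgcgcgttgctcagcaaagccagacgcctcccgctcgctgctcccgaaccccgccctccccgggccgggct

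A single arm was present in the windows of 11 of the 23 members (47.8%) and of 14.1% of 27025 genes, and both arms in 2 members (8.7%) and 0.903% of genes. Counting negative positions before the start, the match with both arms ran from -60 to -48 in Ift57, with a further single arm from -87 to -82. In Bbs7 both arms ran from -121 to -108. The windows of Bbs9 and Ttc8 held neither form, nor did those of Bbs2, Bbs4, Bbs10 and Bbs12. Among the IFT genes, the windows of Ift20, Ift22, Ift43, Ift46, Ift52 and Ift74 held neither form as well. All 3 motor genes had a single arm. A match is a string of letters and not a measured binding site, and no window was found for Ift122, Ift80 and Ift81.

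**Figure D3:**
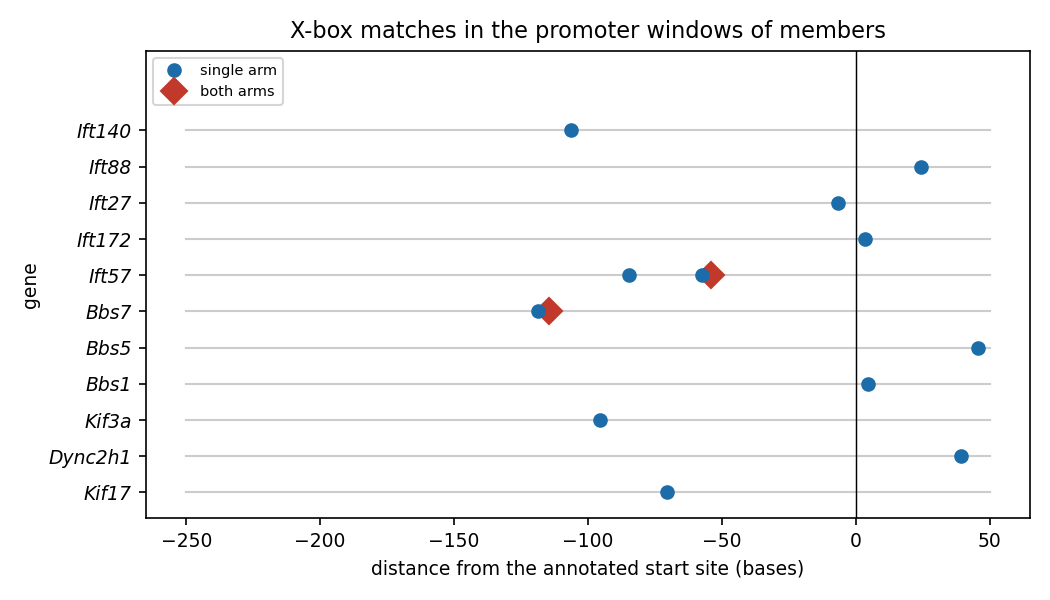
Positions of X-box matches in the promoter windows of the 11 members that hold one, as distance in bases from the annotated start site (horizontal axis), with grey lines for the windows. Circles are single arms and diamonds are matches with both arms, which are found in Ift57 and Bbs7.

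Of the 7 BBSome subunits among the members 2 fell, against 1.92% of all genes, and none rose. In all 3 pairs 6 were lower (85.7%), against 20.7% of all genes. Their median difference was -0.37, and 5 were lower at an unadjusted p under 0.05 (71.4%), against 9.57% of all genes. Both replicate 1 arrays were the lowest of the 6 for 5 of these 7 genes (71.4%), against 26.7% of all genes. Bbs2, the third subunit of the core, was at 9.55, 10.43 and 10.40 in the dark-adapted arrays and at 8.47, 9.91 and 10.22 in the light-damaged ones. Its difference of -0.60 ± 0.17 did not pass (adjusted p = 0.11), and it was much larger in pair 1 (-1.08) than in pairs 2 (-0.52) and 3 (-0.19). Bbs7, with Bbs2 and Bbs9 a β-propeller subunit, was at 10.12, 10.91 and 10.93 against 9.90, 10.23 and 10.73, a difference of -0.37 ± 0.12 (adjusted p = 0.17). Bbs5, a subunit that binds phosphoinositides, differed by -0.33 ± 0.11 (adjusted p = 0.17). Its replicate 1 arrays, at 8.10 and 7.65, lay -2.26 and -2.42 log2 units from the mean of the other arrays of their group, and those 4 arrays lay between 9.88 and 10.37. Bbs1, which contacts the GTPase Arl6 at the membrane, differed by -0.21 ± 0.11 (adjusted p = 0.38), and Bbs4, which like Ttc8 has tetratricopeptide repeats, by 0.02 ± 0.11. The 3 other probe sets of Bbs4 gave -0.02, 0.01 and 0.03. The BBSome genes were thus not uniform, with Bbs4 near 0 in every probe set. Bbip1, a further BBSome subunit that the naming rule leaves out and that was singled out after its value was seen, differed by -0.02 ± 0.09 (limma adjusted p = 0.94).

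Bbs10 and Bbs12 are chaperonin-like proteins that help to assemble the BBSome core. Neither passed, with differences of -0.21 ± 0.12 and -0.14 ± 0.12. Both were lower in pairs 1 and 2 and higher in pair 3. The second probe set of Bbs10, 0.80 log2 units dimmer, was at 6.71, 7.17 and 7.16 in the dark-adapted arrays and at 6.23, 6.63 and 6.88 in the light-damaged ones, a difference of -0.43 ± 0.09 (unadjusted p = 0.0031). For Bbs12 the replicate 1 arrays, at 7.35 and 7.03, lay far below the others at 9.05 to 9.37.

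Of the 14 IFT genes Ift57 rose and none fell, and the other 13 had a median of -0.13 and a range of -0.41 to 0.07. In IFT-A, the complex needed for return transport, Ift122, Ift140 and Ift43 differed by -0.16 ± 0.11, -0.06 ± 0.09 and 0.01 ± 0.10. Ift122 and Ift140 were highest in the replicate 1 arrays and Ift43 lowest there. In the B1 core of IFT-B, Ift81, which binds tubulin together with Ift74, had the difference farthest from 0, -0.41 ± 0.13 (adjusted p = 0.15), at 9.15, 10.50 and 10.54 against 8.41, 10.15 and 10.41. Its next probe set gave -0.20 ± 0.10 and a very dim one -0.01. Ift74, its partner, differed by -0.13 ± 0.09. Ift88, the gene mutated in the Oak Ridge polycystic kidney mouse, differed by -0.14 ± 0.09 and was lower in all 3 pairs. Ift46, Ift52, Ift27 and Ift22, of which Ift27 and Ift22 are small GTPases, lay between -0.08 and 0.07.

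The remaining members of the peripheral B2 part were Ift20, Ift80 and Ift172. Ift20, its direct partner, which also acts at the Golgi, was at 9.41, 9.62 and 9.89 in the dark-adapted and at 8.74, 9.60 and 9.79 in the light-damaged arrays. Its difference of -0.26 ± 0.14 (adjusted p = 0.39) was -0.67 in pair 1, with -0.02 and -0.10 in pairs 2 and 3. Ift80 differed by -0.26 ± 0.11 (adjusted p = 0.29), with -0.53 in pair 2 and -0.09 and -0.16 in pairs 1 and 3. Ift172 was at 9.37, 9.37 and 9.39 against 9.19, 9.20 and 9.32, a small difference of -0.13 ± 0.09 (adjusted p = 0.49) without overlap of the groups. None of these 3 passed, and all were below 0 in each pair, where Ift57 was above 0.

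The 3 motor genes did not pass. Kif3a, a motor subunit of the heterotrimeric kinesin that drives outward IFT, was at 9.19, 9.22 and 9.17 against 9.05, 8.93 and 9.13, a difference of -0.16 ± 0.09 (adjusted p = 0.44) without overlap of the groups. Of its 3 other probe sets one gave -0.03 and the others 0.07 and 0.23, so the direction of Kif3a depended on the probe set. Dync2h1, the heavy chain of the dynein that drives return transport, differed by -0.13 ± 0.09 and Kif17, the homodimeric kinesin of some cilia, by 0.09 ± 0.09. Over the members 17 further probe sets were present, and 4 of them had the opposite sign to the one used, all in genes that were not called.

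Calls in the lists of other ciliary genes are to be read beside the 4.99% called over all genes. None of 10 further IFT subunits passed, though all 10 were below 0, with a median of -0.17. Of these, Ttc30b, an IFT-B subunit, differed by -0.69 ± 0.22 (adjusted p = 0.16), with -1.43 in pair 1, and Wdr19, the IFT-A subunit also called Ift144, by -0.26 ± 0.10 (adjusted p = 0.23). None of 10 other motor subunits passed, with a median of -0.13, and the smallest p were those of Wdr60, an intermediate chain of the same dynein, at -0.36 ± 0.10 (adjusted p = 0.0985) and of Kif3b, the partner of Kif3a, at -0.31 ± 0.09 (adjusted p = 0.11). The 12 genes related to the BBSome or Bardet-Biedl syndrome had a median of -0.0004, with 6 of them below 0. Of these 12, 1 fell: Rab3ip, also called Rabin8, which activates Rab8 and binds the BBSome. It was at 10.26, 10.52 and 10.59 against 9.75, 10.04 and 10.21, a difference of -0.46 ± 0.09 (limma adjusted p = 0.038) with separate groups. The call was lost with the mean of its probe sets (-0.33, adjusted p = 0.0699). Cct2, a subunit of the chaperonin that works with Bbs10 and Bbs12, differed by 0.25 ± 0.09 and Trim32, a ubiquitin ligase, by -0.22 ± 0.10, neither of which passed.

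Of 22 genes of the transition zone and connecting cilium, 2 fell and none rose, with a median of -0.15. Rpgrip1, which anchors the GTPase regulator Rpgr in the photoreceptor connecting cilium, was at 12.13, 12.14 and 12.28 against 11.61, 11.30 and 11.73, without overlap. The difference was -0.63 ± 0.10, a 1.55-fold fall (limma adjusted p = 0.024). Cc2d2a, a transition zone scaffold, was at 9.55, 10.46 and 10.40 against 9.13, 9.93 and 9.93, and fell 1.39-fold (-0.47 ± 0.09, limma adjusted p = 0.034). Without light-damaged replicate 1, unpaired, it differed by -0.20, with the low dark-adapted replicate 1 kept. Without both replicate 1 arrays it differed by -0.50. Rp1l1, a protein of the photoreceptor axoneme, at -0.56 ± 0.14 and Rpgr at -0.32 ± 0.09 did not pass. The 18 basal body and ciliogenesis genes had a median of -0.03, and 1 rose, Rfx2, one of the RFX factors that bind the X-box. It was at 7.09, 7.19 and 7.41 against 7.67, 7.94 and 7.93, a 1.53-fold rise of 0.62 ± 0.09 (limma adjusted p = 0.019). This call was lost with the mean of its probe sets (0.24, adjusted p = 0.13). The other RFX factors of the list did not pass, Rfx3 at -0.30 ± 0.11, Rfx1 at -0.07 ± 0.10 and Rfx4 at -0.05 ± 0.09. The part of RFX factors in the rise of Ift57 was not tested. Pcm1, a centriolar satellite protein, and Ttbk2, a kinase that starts ciliogenesis, differed by -0.31 ± 0.09 and -0.33 ± 0.10 and did not pass.

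None of 13 ciliary GTPase and cargo genes passed, and their median was -0.08. The smallest p were those of Unc119, a carrier of lipidated proteins such as transducin, at -0.38 ± 0.11 and of Arl2bp, a partner of the GTPase Arl2, at -0.41 ± 0.12. The 15 genes of the motile axoneme gave no call and had a median of -0.04, Ccdc39 at -0.25 ± 0.12 and Dnah11 at -0.18 ± 0.09 having the smallest p. None of 9 genes of hedgehog signalling, which passes through the primary cilium, was called, and the median was 0.04. Ptch1, the receptor, differed by -0.65 ± 0.15 (adjusted p = 0.067) and Gli2 by -0.24 ± 0.12. Rab3ip, Rpgrip1, Cc2d2a and Rfx2 were called neither without the pairing nor without the replicate 2 or the replicate 3 arrays. Ptch1 was called without the replicate 1 arrays (-0.42, limma adjusted p = 0.046), without the replicate 2 arrays (-0.78, adjusted p = 0.041) and with array weights (-0.51, adjusted p = 0.023). It differed by only -0.21 with the mean of its probe sets (adjusted p = 0.31). In the unpaired comparison without light-damaged replicate 1, which keeps the low dark-adapted replicate 1, it differed by -0.05 (adjusted p = 0.98).

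**Figure D4:**
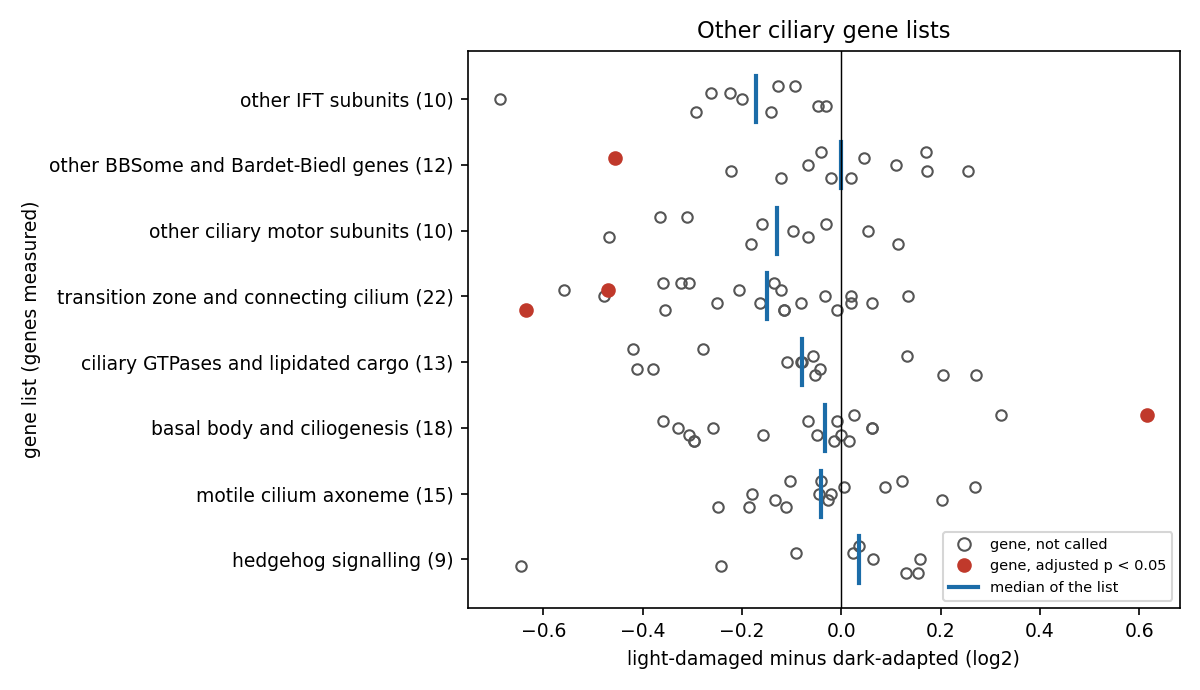
Light-damaged minus dark-adapted differences (log2, horizontal axis) of the genes in 8 further ciliary lists, 1 circle a gene, filled where the adjusted p was under 0.05, with a bar at each list's median. Filled circles are Rab3ip, Rpgrip1 and Cc2d2a below 0 and Rfx2 above 0.

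Markers of several cell types moved between the groups, and in tissue samples fewer cells of a type and less RNA per cell cannot be told apart. All 15 measured photoreceptor markers were below 0, 7 of them fell, and the median was -0.55. The blue cone opsin gene Opn1sw (-1.72 ± 0.15), the cone arrestin gene Arr3 (-0.92 ± 0.10), the cone transducin gene Gnat2 (-0.89 ± 0.11) and the rod factor gene Nrl (-0.67 ± 0.11) were among those that fell. The summed linear level of the photoreceptor list ran from 101540 to 140406 in the dark-adapted and from 72535 to 112638 in the light-damaged arrays. The dark-adapted means of the rod genes Gnat1 and Sag were 14.53 and 14.46, beside 14.38 for the RPE gene Rpe65. The RPE samples thus also held photoreceptor RNA, and the values of ciliary genes are not those of RPE cells alone. Of 12 RPE markers 3 fell, among them Rrh (-0.82 ± 0.09) and Lrat (-0.69 ± 0.11), all 12 were below 0, and the summed level was 125353 to 152571 against 89970 to 117373. Of the RPE markers Best1 was dim, with group means of 8.14 and 7.94, and the others had group means of 9.94 or more. Of 12 macrophage and microglia markers 11 rose, with a median of 0.95 and Cd68 leading at 2.11 ± 0.11. The remaining marker, Csf1r, differed by -0.15 ± 0.09 and did not pass. It was the brightest of that list, with group means of 13.60 and 13.45. The summed level of the list, Csf1r included, was 18781 to 24842 against 26132 to 35259. Over all genes, 3.07% were called higher and 1.92% lower. Without the pairing none of the marker genes named here passed in limma, the smallest adjusted p among them being 0.098 for Opn1sw. The values hold no detection calls, so no marker can be given as absent.

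The mean log2 value of the 7 BBSome members was 9.45, 10.39 and 10.38 in dark-adapted replicates 1 to 3 and 9.03, 9.82 and 10.19 in light-damaged replicates 1 to 3. That of the photoreceptor markers was 11.64, 12.28 and 12.16 against 11.00, 11.45 and 11.76. Both lists were low in replicate 1 of each group and lower in the light-damaged array of every pair. For the RPE markers the values were 12.65, 12.64 and 12.95 against 12.05, 12.33 and 12.49, lower in every pair but not low in dark-adapted replicate 1. The part of photoreceptor RNA, RPE RNA or the 3′ to 5′ control difference in the falls of Bbs9 and Ttc8 was not tested. Ift57 had the opposite direction to both marker lists in each pair, as had the macrophage and microglia markers, at 9.52, 9.35 and 9.43 against 10.40, 10.34 and 10.30. Their part in the rise of Ift57 was not tested.

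**Figure D5:**
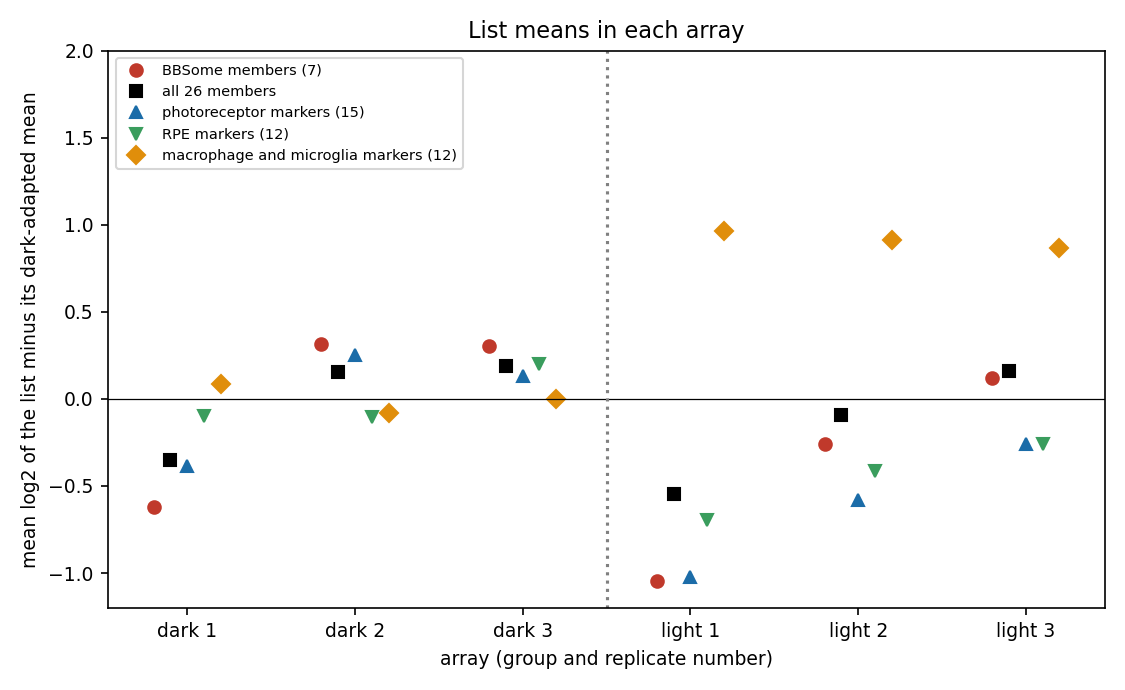
Mean log2 value of 5 gene lists in each array minus the list's dark-adapted mean (vertical axis), with dark-adapted arrays left and light-damaged arrays right of the dotted line. The BBSome members, all 26 members, the photoreceptor markers and the RPE markers are each lowest in light-damaged replicate 1. The macrophage and microglia markers are higher in all 3 light-damaged arrays.

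The markers of other cells gave smaller counts. Of 7 Müller glia markers Gfap, an intermediate filament gene induced in stressed glia, rose (0.74 ± 0.11). The others did not pass, Rlbp1 at -0.62 ± 0.15, Apoe at -0.39 ± 0.10, Aqp4 at -0.29, Dkk3 at -0.29, Glul at -0.22 and Slc1a3 at 0.25. Among 3 measured bipolar cell markers none passed, with Prkca at -0.52 ± 0.11 and Cabp5 at -0.55 ± 0.15. Col3a1 and Pdgfra rose among 6 fibroblast and pericyte markers (0.82 ± 0.13 and 0.73 ± 0.13). The others of that list did not pass, Lum at 0.44, Dcn at 0.28, Col1a1 at 0.08 and Pdgfrb at -0.22. Vwf rose among 6 endothelial markers (0.68 ± 0.11). The other endothelial markers did not pass, Cdh5 at 0.27, Cldn5 at 0.20, Tie1 at 0.08, Kdr at -0.0008 and Pecam1 at -0.02. Mki67 and Birc5 rose among 5 markers of dividing cells (1.06 ± 0.13 and 0.73 ± 0.11). The other 3 markers of dividing cells did not pass, Bub1 at 0.27, Top2a at -0.01 and Cdk1 at -0.21. The part of these cells in the members' values was not tested.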

How the data were processed

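RNA from RPE carried a biotin label and was hybridised to Affymetrix mouse arrays. The authors deposited log2 expression values for 45101 probe sets. The submitters' processing notes name RMA and no version, and the log2 scale was judged from the values. RMA can understate differences of dim probe sets. Probe sets with exactly 1 symbol in the platform annotation were kept, and the brightest over 6 arrays stood for its gene (18193 genes). An s_at probe set measured 4 members and an x_at probe set 1, and such probe sets can also detect related transcripts.

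Tests used limma (version 3.58.1, R version 4.3.3; lmFit, eBayes, two-sided), p-values adjusted by Benjamini-Hochberg over the 18193 genes, the replicate number as a block, and 2 residual degrees of freedom. The labels do not say what the number marks. The pairing was accepted because, over all genes, the deviation from the group mean was shared by both arrays of number 1 (r = 0.89), number 2 (0.62) and number 3 (0.86). These values rest mostly on replicate 1, since deviations within a group sum to 0. Crossing numbers 2 and 3 gave 0.65 and 0.61, while subtracting replicate 2 from replicate 3 within each group gave changes that correlated at 0.33. On simulated data with changes of 1 log2 unit, larger than the difference of any member, the fit recovered the changed genes. The share of false calls was larger than the adjusted p states, and recovery of smaller changes was not tested. In each list, genes were named where called, at most 4, plus up to 2 by smallest p. Other list genes were added after their values were seen. The members and lists were chosen with earlier results of these data known. Alternatives covered the block, left-out replicates, normalization, a filter on dim genes (mean of 6), a pseudocount of 16, the probe set choice and limma's settings.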

Additional observations from a re-analysis of the deposited data

How the results depend on the processing

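The fit without the replicate block ended the calls of all 3 members and of Rab3ip, Rpgrip1, Cc2d2a and Rfx2, and left 9 called genes in all, 0 members and 0 genes of the other ciliary lists; with the replicate block, 3 members were called under quantile normalization, median centring, the dim filter, the pseudocount, the mean of probe sets, probe sets without s_at and x_at, trend and robust settings and array weights. Array weights gave 1875 called genes, 2 of the basal body list, 1 each of the hedgehog, motile axoneme and other motor lists. With the mean of probe sets 0 genes of the basal body list and 0 of the other BBSome list were called. Leaving out both arrays of a replicate number, or 1 array without the block, gave 3 to 1245 called genes, 0 to 3 members, 0 to 3 transition zone genes, 0 to 2 basal body genes, and 0 to 1 of the other BBSome and the hedgehog lists. Over these settings the members median difference ran from -0.34 to 1.39e-05, the last without light-damaged replicate 1, and 13 to 22 members were below 0. Dropping 1 array without the block keeps its partner of the same number, so a shift of that replicate is not balanced. Without replicate 2, 1 member (Ift57) was called, and without replicate 3, 0 members. No called gene changed sign among 79 genes followed. With 3 arrays a group and 2 residual degrees of freedom, the calls lean on the variance shared across genes.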
